A study of Mus musculus with 4 samples.

Results

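The S100 genes examined here form the clustered S100a family: S100a1, S100a3, S100a4, S100a6, S100a8, S100a10, S100a11, S100a13, S100a14 and S100a16. They were chosen by symbol, as rows of the deposited expression table whose gene symbol equals one of these 10 names. The table held a row for 9 of the 10, out of 17906 genes with a value. S100a8 had no row under its symbol or its identifier, and it is not analysed here.

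The table comes from RNA-seq of MLE12, an established line of mouse lung epithelium that resembles the surfactant-producing alveolar type II cell. Control cells gave 2 libraries and lamin B1 knockdown (KD) cells gave 2, where lamin B1 is a protein of the meshwork under the nuclear envelope. Both groups were grown in puromycin at 2 µg/ml, which selects for the shRNA vector in the stable lines of the study. Which shRNA these libraries carry, and whether the libraries of a group came from separate cultures, is not stated in the labels or the methods. A single value per gene is used, the mean normalized count over all 4 libraries as the authors deposited it, referred to as the level. It pools control and KD cells, so it has no error between libraries and says nothing of a difference between the groups, which is not tested here.

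S100 proteins are small calcium sensors that carry a pair of EF-hands, helix-loop-helix motifs whose loop wraps around a calcium ion. Most act as dimers: calcium opens a hydrophobic face of the dimer, which then grips a target such as an annexin, a myosin heavy chain or p53. Several are also released from cells and act on receptors such as RAGE, the product of Ager, which is abundant in lung.

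The calcium loop of the second EF-hand, the canonical one, is shown for each of the 9 genes. Each is a run of 12 codons (36 bases) read from the coding sequence of the GENCODE M21 transcripts on GRCm38, and each lies within 1 exon. Capitals mark the codons at loop positions 1, 3, 5 and 12, where in a working loop the side chains of acidic or amide residues hold the calcium.
S100a6 (chr3:90614233-90614268, plus strand): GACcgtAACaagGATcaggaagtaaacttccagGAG
S100a11 (chr3:93526037-93526072, plus strand): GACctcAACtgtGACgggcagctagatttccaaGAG
S100a10 (chr3:93564288-93564323, plus strand): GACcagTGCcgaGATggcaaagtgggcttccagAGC
S100a1 (chr3:90511284-90511319, minus strand): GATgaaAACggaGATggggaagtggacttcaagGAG
S100a4 (chr3:90605785-90605820, plus strand): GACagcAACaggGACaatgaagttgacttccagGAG
S100a16 (chr3:90542410-90542445, plus strand): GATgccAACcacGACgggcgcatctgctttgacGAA
S100a13 (chr3:90524389-90524424, plus strand): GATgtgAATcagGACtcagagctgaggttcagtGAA
S100a14 (chr3:90528114-90528149, plus strand): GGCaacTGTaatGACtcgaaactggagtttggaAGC
S100a3 (chr3:90602236-90602271, plus strand): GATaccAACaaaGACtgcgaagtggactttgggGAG
In 7 of the 9 genes all 4 marked codons encode an acidic or amide residue. S100a10 has such a codon at 2 of the 4 positions and S100a14 at 1 of the 4. S100a10 is known as the member that does not respond to calcium and stays in its open form. Over the 36 pairs of genes, the loops shared a median of 18.5 of 36 bases. The pair with most bases in common was S100a4 and S100a6 with 28, and the pair with fewest was S100a14 and S100a16 with 12.

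The family was carried by 3 genes. S100a6, S100a11 and S100a10 stood far above the rest and together made up 89.7% of the summed level per kb of the 9 genes. The level per kb is the level divided by the length of the gene's merged exons in GENCODE M21, and it is the scale on which genes are compared. The other 6 genes each held between 0.0295% and 3.74% of that sum. S100a3 was lowest, and the level per kb of S100a6 was 1265 times that of S100a3. Of the 9 genes, 8 lay above the median gene (71.9 per kb over the 17683 genes matched to the annotation) and 6 lay in the top 10%. Without division by length, 7 lay above the median gene and 3 in the top 10%. The median gene of the table has 3542 bases of exon, and 8 of the 9 S100a genes have fewer. All 9 together took 0.178% of the summed level of the table.

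S100a6, calcyclin, a cytoplasmic and nuclear-envelope protein found in many epithelia and fibroblasts, was the most abundant member. Its level was 19807 (ENSMUSG00000001025, chr3:90612882-90624181, plus strand), or 14489 per kb of its 1367 bases of exon. That placed it at rank 20 of all genes per kb. S100a11 binds annexin A1 and takes part in membrane repair and in growth control of epithelial cells. Its level was 6140 (ENSMUSG00000027907, chr3:93520488-93526287, plus strand) and its level per kb was 12015, rank 27. S100a10, or p11, holds annexin A2 in a tetramer at the plasma membrane. It had a level of 10157 (ENSMUSG00000041959, chr3:93555080-93564643, plus strand) and 8380 per kb, rank 56. The order of S100a11 and S100a10 depends on the length that is used. S100a11 was higher by a ratio of 1.43 per kb of merged exons, but the ratio was 0.810 per kb of the longest transcript.

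S100a1, S100a4, S100a16 and S100a13 formed a middle group. S100a1, known from heart and skeletal muscle where it modulates calcium release, had a level of 1008 (ENSMUSG00000044080, chr3:90511034-90514392, minus strand) and 1453 per kb. S100a4, also known as metastasin, binds the heavy chain of non-muscle myosin IIA and is widely used as a marker of motile, mesenchymal cells. Its level was 552 (ENSMUSG00000001020, chr3:90603771-90606045, plus strand) and its level per kb was 945. S100a16, a widely expressed member, had a level of 1404 (ENSMUSG00000074457, chr3:90537254-90543151, plus strand) and 868 per kb. S100a13, which helps export FGF1 and interleukin 1 alpha from the cell without a signal peptide, had a level of 412 (ENSMUSG00000042312, chr3:90514435-90524581, plus strand) and 576 per kb. Within this group S100a4 and S100a16 were close on some scales only. The ratio of S100a4 to S100a16 was 1.09 per kb of merged exons and 0.889 per kb of the longest transcript. It was 0.483 per kb of coding length and 0.393 without division by length. S100a10, the last of the top 3, was above S100a1 by a ratio of 5.77 per kb, and by 9.95 with the longest transcript.

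S100a14 and S100a3 were the low members. S100a14, described mainly in human epithelia, had a level of 236 (ENSMUSG00000042306, chr3:90526856-90528837, plus strand) and 137 per kb, at the percentile 60.4 of all genes. S100a3, a cysteine-rich protein of the hair cuticle, had a level of 64.8 (ENSMUSG00000001021, chr3:90560578-90602702, plus strand) and 11.5 per kb, at the percentile 29.7. S100a3 is annotated over 5660 bases of exon, against 511 to 1727 for the other 8 genes. Per kb of coding length, S100a3 was still the lowest at 214, while S100a14 had 757, close to S100a13 with 858. The coding length is that of the longest annotated coding sequence, 480 bases for S100a13 and 312 for S100a14, so this closeness depends on it.

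**Figure D1:**
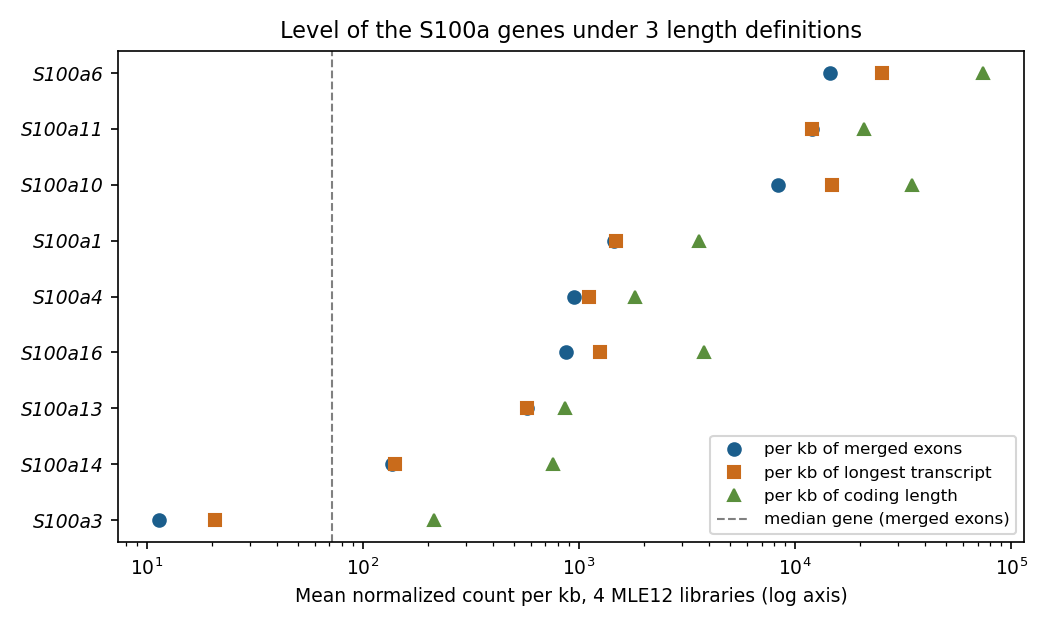
Level of the 9 S100a genes per kb of merged exons (circles), of the longest transcript (squares) and of the longest coding sequence (triangles), on a log axis in mean normalized counts per kb. The dashed line is the median gene per kb of merged exons, 71.9. S100a6 is rightmost and S100a3 leftmost under all 3 lengths, while S100a11 and S100a10 change places.

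The reads behind these levels could be bounded, although the table gives no counts. In the table, all 2130 levels of at most 3 were sums of whole reads, each read worth one of 4 fixed amounts between 0.233 and 0.268 (relative tolerance 1e-09). These amounts correspond to size factors from 0.934 to 1.07, so the 4 libraries were close in depth. Summed over all genes, the level came to 2.24e+07 normalized counts. S100a6 then rests on 73990 to 85121 reads over the 4 libraries, S100a10 on 37941 to 43648 and S100a11 on 22936 to 26386. In the middle group the reads ran from 1539 to 1769 for S100a13 up to 5244 to 6032 for S100a16. S100a14 had 883 to 1015 reads. The counting error of the level was therefore 0.368% for S100a6 and 3.37% for S100a14. It covers counting only. The spread between libraries was not resolved for these 8 genes, so neighbours in the order were not tested against it.

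For S100a3, a single set of whole reads gave the level, which returns a value in each library. The 4 libraries held 72, 64, 59 and 65 reads of S100a3, or 67.0, 60.7, 61.9 and 69.6 normalized counts. These libraries carry no label: which are control and which KD is not known, and they are not grouped here. The highest value was 1.15 times the lowest, and counting alone gives an error of 12.4% for a library with the mean number of reads. S100b, the only other S100 gene with a row that is not in the cluster, was treated in the same way. It had 7, 8, 13 and 15 reads in the same 4 libraries, in the same order, or 6.52, 7.59, 13.6 and 16.1 normalized counts. The highest S100b value was 2.47 times the lowest, on 43 reads in all. Counting alone gives an error of 30.5% for a library with the mean number of S100b reads. Sets of reads were sought only for levels up to 100. Above that, the answer depended on the tolerance: for S100a14, 1 set gave the level at an absolute tolerance of 3e-10 and 3 sets at 1e-09, whereas S100a3 had 1 set at both. No library values are therefore given for S100a14 or the more abundant members.

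The annotation bears on some of these levels. S100a11 has near-identical processed copies, the pseudogenes Gm12854 and Gm7665, each matching 58.1% of the S100a11 transcript. Their best identity to it was 99.0% and 98.7%, and their own levels were 27.2 and 11.1, against 6140 for S100a11. Gm42674, a gene model that reads through from S100a3 into S100a4 on the same strand, shares 302 bases of exon with S100a4 (51.7% of it) and 144 bases with S100a3. It had no row. S100a3 also overlaps the small nuclear RNA gene Gm23464 on the other strand by 117 bases. How the authors' counting treated reads in such shared stretches, and whether it used strand, was not stated, so the levels of S100a4, S100a3 and S100a11 are uncertain to that extent.

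The S100a genes lie in a stretch of chromosome 3 shared with genes of the cornified skin, and its 3 highest levels per kb were those of S100a6, S100a11 and S100a10. The stretch from the first to the last member (GRCm38 chr3:90511034-93564643) is 3.05 Mb long. S100a1, S100a13, S100a14, S100a16, S100a3, S100a4 and S100a6 lie in its first 113 kb. S100a11 and S100a10 lie at the far end, 2.90 Mb beyond. Of the 75 protein-coding genes annotated in the stretch, 22 had a row: the 9 members and 13 others. Of those 13, 12 lay below the median gene per kb and 11 lay below S100a3, the lowest member. The exceptions to the latter were Sprr1a, a cornified-envelope precursor, with 239 per kb and Crct1 with 22.6 per kb. Lor, which encodes loricrin, was lowest with 0.880 per kb. Outside the coding genes, 2 processed pseudogenes in the stretch had a row: Gm4202 (chr3:92689426-92690158, plus strand) stood at 549 per kb, close to S100a13 and above S100a14 and S100a3, and Rplp0-ps1 at 5.72. The other 53 coding genes had no row, among them S100a2, S100a5, S100a7a, S100a8 and S100a9. S100a8 and S100a9 encode the subunits of calprotectin, the abundant calcium-binding protein of neutrophils. The lowest level in the table corresponds to 5 reads over the 4 libraries. No source states whether genes without a row were left out for a low count.

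**Figure D2:**
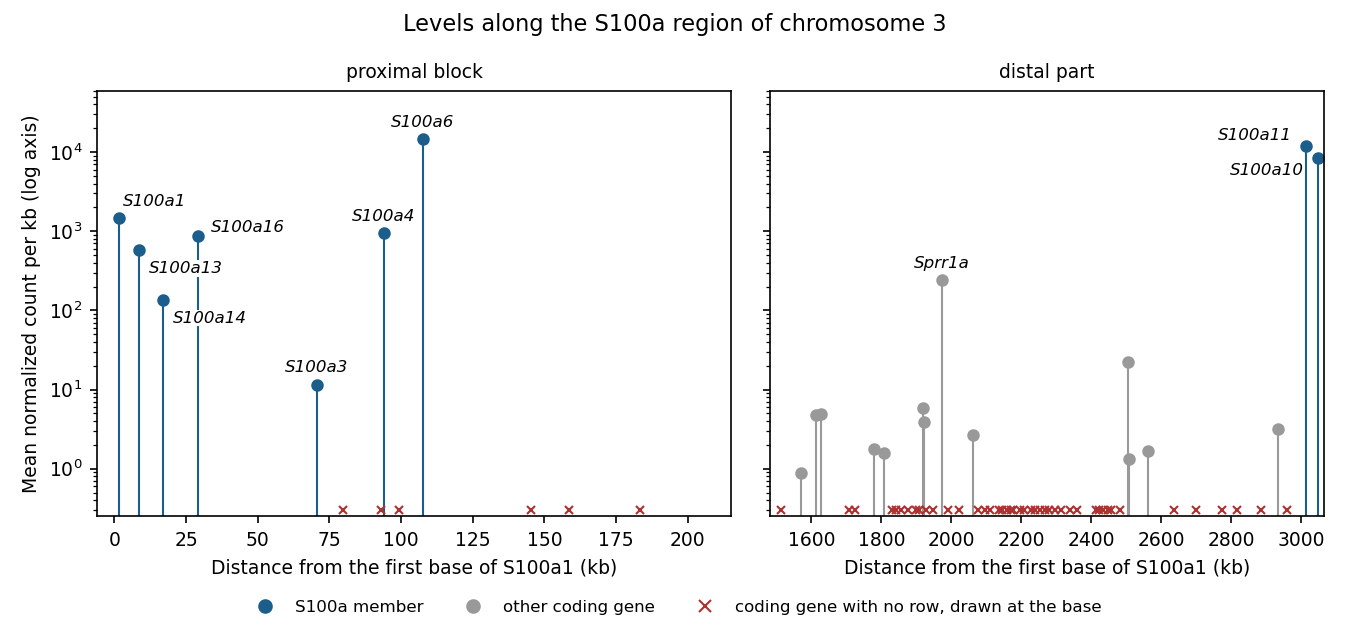
Level per kb (log axis, mean normalized counts per kb of merged exons) of protein-coding genes along the S100a stretch of chromosome 3, by distance in kb from the first base of S100a1; the stretch between the panels holds no gene with a row and is not drawn. Blue stems are the 9 S100a genes and grey stems the 13 other genes with a row, and crosses at the base mark genes with no row. S100a6 at one end and S100a11 and S100a10 at the other are the high genes, and Sprr1a at 239 is the highest protein-coding gene outside the family.

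Neighbours differed widely in level. S100a6 exceeded S100a4, the nearest member upstream of it, by a ratio of 15.3 per kb of merged exons, 22.8 per kb of the longest transcript and 40.7 per kb of coding length. S100a4 exceeded S100a3 by 82.5 per kb of merged exons, 53.7 per kb of the longest transcript and 8.51 per kb of coding length, so the size of this gap depends strongly on the length used. S100a16 exceeded S100a14 by 6.34, 8.87 and 4.98 on the same scales. S100a1 and S100a13 are transcribed away from each other, with 42 bases between their GENCODE M21 starts. S100a1 was higher by a ratio of 2.52 per kb (2.59 with the longest transcript and 4.17 with the coding length). The longest annotated coding sequence was 282 bases for S100a1 and 480 for S100a13.

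The sequence at the starts of the S100a genes was also examined. Whether it bears on their levels was not tested. RefSeq promoters (GRCm38.p6), from 250 bases before to 50 after a start, were found for 7 of the 9 genes, 11 promoters in all. S100a10 and S100a14 had no entry. Both strands were searched for TATAAA, the TATA box, for GGGCGG, the GC box recognised by Sp1, and for TGANTCA. The last takes in the AP-1 core, whose middle base is C or G, but allows any base there. Of all 32851 mouse promoters in the table, 13.6% held TATAAA, 35.7% GGGCGG and 7.81% TGANTCA. The number of CG dinucleotides was counted too, and its median over all promoters was 7. The promoters of S100a13, S100a11, S100a4 and S100a6 are shown, since between them they show each motif, the shared start region and a window without a match. Capitals mark the 42 bases between the GENCODE M21 starts of S100a1 and S100a13 in the S100a13 promoter, and elsewhere the matches to any of the 3 motifs.
S100a13 promoter (chr3:90514185-90514484, plus strand): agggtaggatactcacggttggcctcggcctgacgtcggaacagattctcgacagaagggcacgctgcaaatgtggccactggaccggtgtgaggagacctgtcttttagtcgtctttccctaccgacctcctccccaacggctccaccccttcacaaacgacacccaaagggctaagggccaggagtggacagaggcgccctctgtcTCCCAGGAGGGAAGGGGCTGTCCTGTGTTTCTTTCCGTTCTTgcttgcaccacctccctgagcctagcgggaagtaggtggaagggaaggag
S100a11 promoter (chr3:93520246-93520545, plus strand): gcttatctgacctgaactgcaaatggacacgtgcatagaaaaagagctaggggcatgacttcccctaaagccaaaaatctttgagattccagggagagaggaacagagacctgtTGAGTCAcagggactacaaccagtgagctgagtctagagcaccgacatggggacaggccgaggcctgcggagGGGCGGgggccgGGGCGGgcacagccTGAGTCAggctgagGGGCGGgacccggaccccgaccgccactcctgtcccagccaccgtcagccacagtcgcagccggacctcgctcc
S100a4 promoter (chr3:90603520-90603819, plus strand): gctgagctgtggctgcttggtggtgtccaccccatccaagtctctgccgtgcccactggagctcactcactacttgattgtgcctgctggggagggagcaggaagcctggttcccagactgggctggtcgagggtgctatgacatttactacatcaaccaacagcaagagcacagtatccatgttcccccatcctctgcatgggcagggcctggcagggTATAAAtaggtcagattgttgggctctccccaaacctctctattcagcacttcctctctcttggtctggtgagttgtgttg
S100a6 promoter (chr3:90612644-90612943, plus strand): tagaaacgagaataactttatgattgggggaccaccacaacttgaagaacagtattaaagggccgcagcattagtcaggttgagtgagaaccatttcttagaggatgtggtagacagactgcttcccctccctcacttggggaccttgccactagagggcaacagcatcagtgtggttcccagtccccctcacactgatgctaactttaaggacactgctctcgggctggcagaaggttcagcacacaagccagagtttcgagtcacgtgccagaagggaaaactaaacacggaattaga
The S100a13 window covers the GENCODE start of S100a1 as well. The RefSeq window of S100a1 (chr3:90514281-90514580, minus strand) is set on another start, inside the gene, which the S100a13 window also covers. The S100a13 window held none of the 3 motifs and 14 CG dinucleotides. The promoter of S100a11 held GGGCGG 3 times, TGANTCA 2 times and 15 CG dinucleotides, the most of the 11 promoters. The promoter of S100a4 held TATAAA at position -31 from the start and 2 CG dinucleotides. S100a6, the most abundant member, had none of the 3 motifs in its promoter and 6 CG dinucleotides. Of the 4 S100a3 promoters, 1 held TATAAA, at position -52, and another held GGGCGG. Of the S100a16 promoters, 1 held both GGGCGG and TGANTCA, the latter as TGAATCA, which lacks the C or G of the AP-1 core. In all, TATAAA was found in 2 of the 11 promoters, GGGCGG in 3 and TGANTCA in 2, beside the shares over all promoters given above. A match describes the letters of the window only, and binding was not measured here.

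Among the known targets of S100 proteins, Anxa1 and Anxa2, whose products are the partners named above for S100a11 and S100a10, were abundant too. Annexins are calcium-dependent membrane-binding proteins. Of 12 annexin genes, 10 had a row, all at a level of at least 2 (the floor used in the study), and 7 were in the top 10% per kb. Anxa1 had 5983 per kb, Anxa2 3773 and Anxa5 3014. The lowest were Anxa11 with 113 and Anxa9 with 61.9, so not every annexin was abundant. S100a10 stood at 2.22 times Anxa2 per kb, the gene of the partner in its tetramer. S100a11 stood at 2.01 times Anxa1 per kb, and at 1.15 times with the longest transcript. The median annexin had 2342 per kb, against 945 for the median S100a gene.

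All 17 binding partners on the list had a row, 15 of them above the median gene and 6 in the top 10%. The highest were Capza2, a subunit of the actin-capping protein, with 1543 per kb, Myh9, the non-muscle myosin IIA heavy chain, with 1498, and Cttn, cortactin, with 1346. S100a4 had 0.631 times the level per kb of Myh9, its myosin partner, and 0.425 times with the longest transcript. S100a6 had 11.3 times the level per kb of Cacybp, the calcyclin-binding protein, which stood at 1277, and 17.4 times with the longest transcript. S100a10 had 13.8 times that of Ahnak, a very large scaffold protein bound by the annexin A2 tetramer, which stood at 607, and 22.2 times with the longest transcript. The cargoes of S100a13 were the low ones on this list: Fgf1 had 2.76 per kb and Il1a 1.75. Cacybp, Ahnak, Fgf1 and Il1a are named as known partners of single members and were picked after their values were seen.

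Of 7 receptors of extracellular S100 proteins, 6 were at the floor of 2 or above. Bsg, or basigin, had 10056 per kb, and the heparan sulfate carriers Sdc1 and Sdc4 had 2921 and 2462. Ager, which encodes RAGE, had 819 per kb and lay in the top 10%. Alcam, a cell adhesion molecule, had 117 per kb and Tlr4, the endotoxin receptor, 10.6. Cd36, a scavenger receptor, was listed with a level of 1.49.

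Other EF-hand proteins show where the family stands among calcium sensors. Of 27 on the list, 23 had a row, 20 of these above the median gene and 9 in the top 10%. Calm2, one of the calmodulin genes, had 10935 per kb and Capns1, the calpain small subunit, 3717. S100a6 and S100a11 were both above Calm2 on this scale. Of 7 other genes with an S100 name on the list, S100b had 7.38 per kb, below the median gene. S100pbp, which encodes a protein that binds an S100 protein and is not itself a family member, had 132, above the median gene. The other 5 had no row. Of 7 fused S100 genes of the skin, only Tchh, trichohyalin, had a row, with 3.20 per kb.

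**Figure D3:**
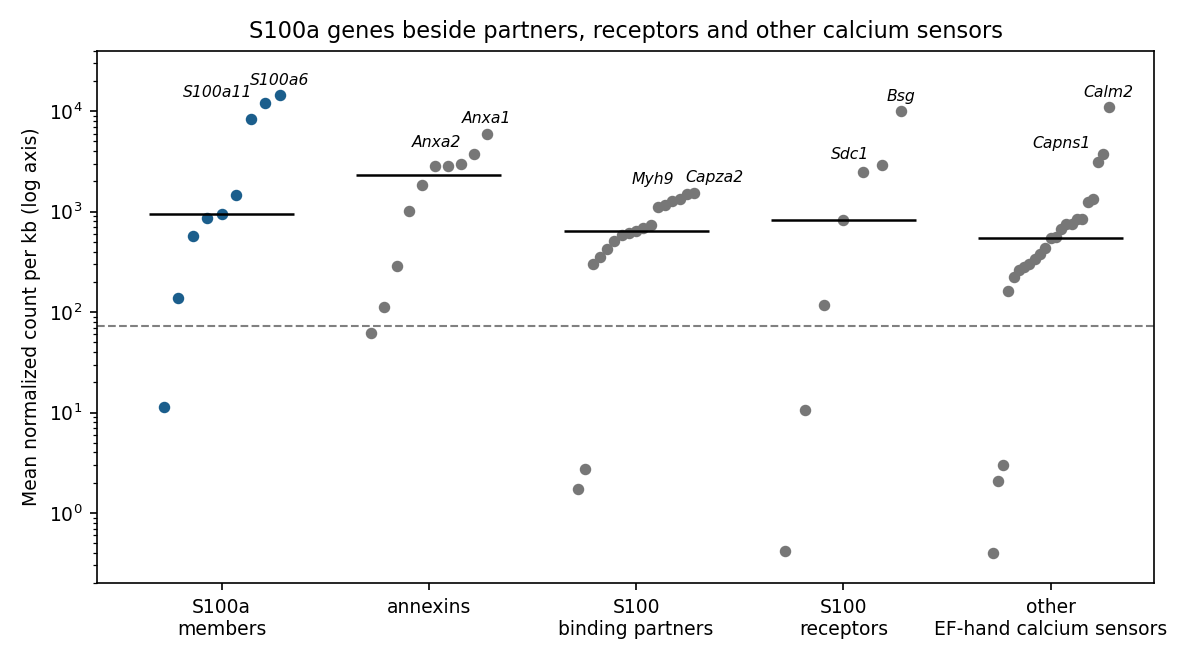
Level per kb (log axis, mean normalized counts per kb of merged exons) of the 9 S100a genes and of the genes with a row in 4 lists. Each point is a gene, points in a list are sorted by level, the bar is the list's median and the dashed line the median gene at 71.9. S100a6 at 14489 and S100a11 at 12015 lie above Calm2 at 10935 and Bsg at 10056.

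Markers of the labelled cell type were mixed. Of 7 epithelial markers, all listed, Krt19 had 17087 per kb, Krt8 4865 and Cdh1 320, whereas Epcam, Krt18, Cldn4 and Cldn7 had 35.3, 8.96, 1.83 and 1.29. Of 9 alveolar type II markers, 6 had a row. Sftpb had 3145 per kb, Nkx2-1 938, Sftpc 863 and Abca3 272, while Napsa had 4.21 and Sftpa1 0.549. All 5 alveolar type I markers had a row, from Rtkn2 with 62.3 per kb to Aqp5 with 2201. Of 8 myeloid markers, which are the usual company of S100a8 and S100a9, 4 had a row, with levels from 7.95 to 51.4. S100a9 had none. Of 5 fibroblast markers, Dcn stood out with 2099 per kb, and the other 4 had at most 19.9. Of 3 endothelial markers, Kdr and Pecam1 had 1.63 and 1.08 per kb and Cdh5 had no row. In bulk RNA, fewer cells of a type and less RNA per cell cannot be told apart, and the part of any minor cell type in the S100a levels was not tested.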

How the data were processed

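RNA-seq of MLE12 cells was used (polyadenylated RNA, Ion Torrent), 2 control and 2 lamin B1 KD libraries grouped by their labels. Per the methods and the submitters' processing notes, the authors used Reaper for trimming, STAR for alignment to mm10 and DESeq2 for the counts. Versions, counting program and strand setting: not given in the sources used here. Each deposited level is a signal, computed by the authors as the mean over the 4 libraries of counts divided by size factors. The other deposited columns hold the authors' own comparison of KD with control (log2 fold changes and raw and adjusted p-values) and were not used, so no comparison of the groups was made.

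The table holds 18018 rows, 17906 of them with a level. Of these, 17683 (98.8%) were matched by identifier to GENCODE M21 on GRCm38, the assembly of mm10. From the levels were computed the level per kb of merged exons, ranks and percentiles, list counts, and the whole reads behind low levels (levels up to 100 solved for single read sets). The depth of each library is known only as its size factor, and the precision of a level is given as its counting error. The recovery of whole reads was tested on simulated data of 24541 genes, in which 40 of 40 read sets at levels like that of S100a3 were recovered. Near-identical copies were searched at 95% identity over at least 100 bases. Tools were Python 3.11.15, numpy 2.4.6, pandas 2.3.3, biopython 1.88, matplotlib 3.10.9 and BLAST 2.17.0. Alternatives were other lengths, backgrounds, floors and tolerances.

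The members and lists were chosen with earlier results of these data known. Named were all members, every other S100 gene with a row, and of each other list all genes at the floor where it had up to 6, otherwise the 3 highest per kb, except 1 gene that is not reported here. Neighbours on the chromosome were eligible too, and the further partners and markers named were picked after their values were seen.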

Additional observations from a re-analysis of the deposited data

How the results depend on the processing

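The ratio of the highest to the lowest S100a gene was 1265 per kb of merged exons, 1227 per kb of the longest transcript and 347 per kb of the longest annotated coding sequence. The last was chosen after seeing the data, in place of a coding length from RefSeq proteins that was not run. S100a6 was highest and S100a3 lowest under these lengths. The median percentile of the 9 genes was 92.4, 91.8 among genes at the floor of 2 or above, 90.7 among protein-coding genes and 69.7 when levels were not divided by length. The share of the top 3 genes was 89.7%, or 90.8% when not divided by length. With the longest transcript, 8 of the 9 genes kept their rank within 1.5 times and S100a11 moved from 27 to 58. When not divided by length, 7 of the 9 moved to larger rank numbers by more than 1.5 times, S100a6 from 20 to 80 and S100a1 from 765 to 5430. The number of S100, partner, receptor and sensor genes at the floor was 68 at a floor of 2, 65 at 10 and 69 at any level. The low levels were given by whole reads at both tolerances. No paired analysis was possible because the only column used is 1 mean over all 4 libraries, with no library labelled. No library was left out for the same reason, and library values were recovered for S100a3 and S100b only.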

Other observations

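The 2 keratin genes that pair in simple epithelia stood far apart in this table: Krt8 had a level of 9525 and Krt18 a level of 12.9, or 4865 and 8.96 per kb. Among the fibroblast markers, Dcn, which encodes decorin, had a level of 12256, while Col1a2 had 4.34 and Lum 4.18. Both were noticed after the values were seen, and their sources were not tested.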
